A study of Mus musculus with 4 samples.

Results

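The genes described are 40 genes of mitosis and the spindle, a list that runs from the kinases of mitotic entry to the proteins of cytokinesis. They were taken from the array by symbol, using the probe sets whose platform annotation gave one of these symbols and no other. In that way 39 of the 40 were measured, among 18193 genes named on the array. The exception, Ccnb1, the cyclin B partner of Cdk1, was not analysed here. All 39 passed the filter on low signal, with 12598 genes past it in all.

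RNA of 3 mouse liver cell lines was hybridised to 4 Affymetrix Mouse430_2 arrays, each from 5 µg of total RNA. MetE14/3 and WTE14/1 are lines of resident liver stem cells (RLSC), picked for a palmate shape from cultures of embryonic liver at day 14 and measured on 1 array each. MetE14/3 came from a cyto-Met transgenic embryo and is a single clone (B2), and WTE14/1 came from a wild-type embryo; the source name of the WTE14/1 array reads WT E14/3. The comparison line is MMH-D3, of the MMH hepatocyte lines that the labels tie to cyto-Met livers, measured on 2 arrays that the labels number 1 and 2. The MMH-D3 labels give no genotype, and the promoter of the transgene is not given in the sources used here. All lines began as liver cultures on collagen I with serum and growth factors. Colonies of the RLSC lines were then grown up in DMEM with serum over many generations and frozen, a step the MMH-D3 labels do not have, and the labels give neither the passage nor the density of any culture at harvest. Whether the MMH-D3 arrays stand for 2 cultures is not stated either, and their difference may reflect technical variation alone. The p-values here rest on the spread within each group. In RLSC that is the spread between 2 lines of different genotype, which are taken as replicates of 1 group.

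Mitosis begins when Cdk1 with its cyclins phosphorylates a broad set of proteins, and it ends when the anaphase-promoting complex marks cyclins and securin for destruction. Between these points the kinetochores attach chromosomes to the spindle, the checkpoint holds anaphase until all are attached, and the passenger complex corrects wrong attachments. Most of these genes are transcribed late in the cycle, so their RNA is abundant in dividing cultures and scarce in resting ones. Adult hepatocytes rarely divide, whereas hepatocytes and progenitors of the embryonic liver do.

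The mitotic genes were high on 3 of the 4 arrays and low on 1, MMH-D3 array 2. Their median deposited signal was 1161 in MetE14/3 (148 to 4290) and 1276 in WTE14/1 (147 to 4801), against 282 on MMH-D3 array 2 (41.8 to 1732) and 1506 on array 1 (185 to 5506). For all 39 genes the lowest of the 4 values, on the quantile-normalized log2 scale used below, was that of MMH-D3 array 2, as it was for 31.8% of all genes tested. On array 2, 34 of the 39 lay more than 2-fold below the lowest of the other 3 arrays, against 6.98% of all genes. Among the other 3 arrays 32 of the 39 stayed within 2-fold of each other, compared with 61.4% of all genes. The highest value was in MetE14/3 for 11 genes, in WTE14/1 for 14 and on MMH-D3 array 1 for 14. Over the 12598 genes tested these counts were 2672, 3388 and 2811.

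**Figure D1:**
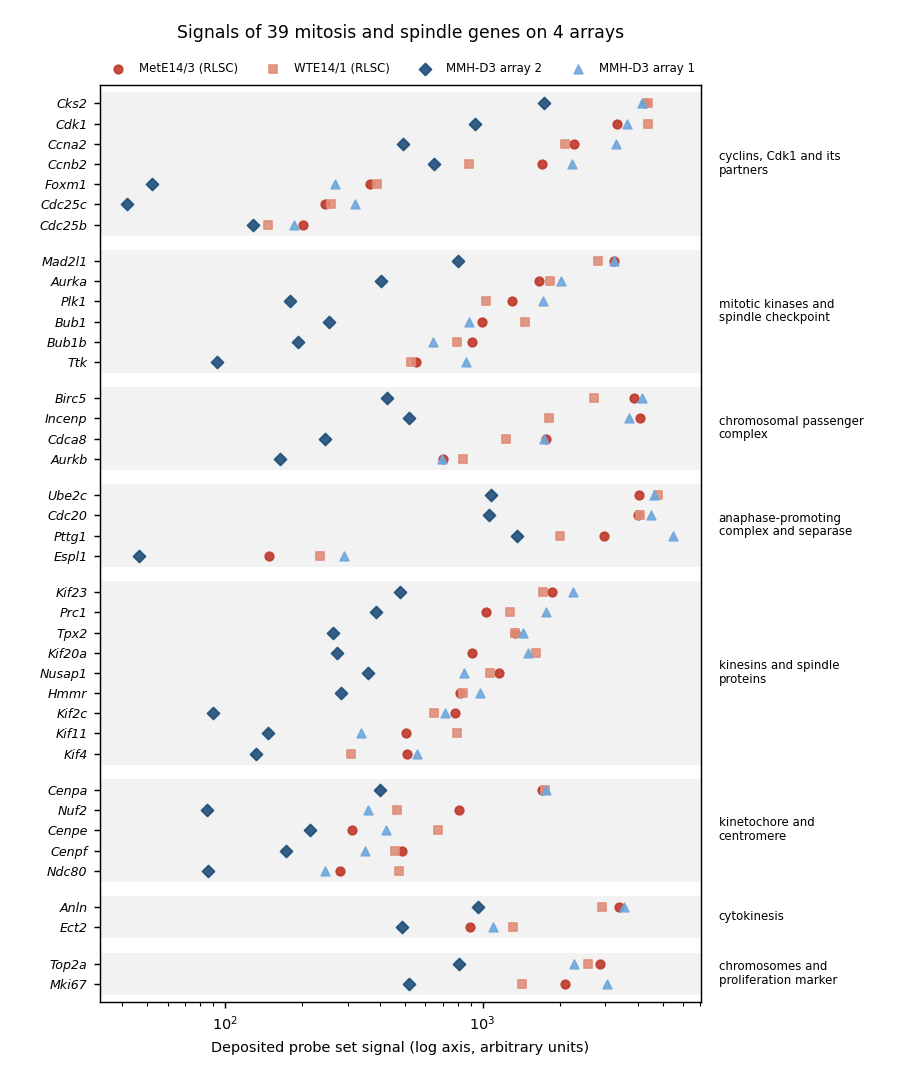
Deposited signal (log axis) of the 39 mitotic genes on each array, with the RLSC lines MetE14/3 and WTE14/1 set before MMH-D3 array 2 and array 1; genes are grouped by role. The array 2 point is the lowest for every gene, and the other 3 arrays lie within 2-fold of each other for 32 of them once normalized.

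The arrays differ in other ways that run with these values. Each array has a trimmed mean near 200 (200.001), per the deposited values, but the median signal was 19.6 in MetE14/3 and 28.0 in WTE14/1, against 23.1 on MMH-D3 array 2 and 16.9 on array 1. The 24 probe sets for added poly-A control RNAs were 10.1-fold higher on MetE14/3 and MMH-D3 array 1 than on WTE14/1 and MMH-D3 array 2, and the number of decimals deposited splits the arrays into the same pairs. WTE14/1, the partner of array 2 in that split, had a median mitotic signal of 1276, against 1161 in MetE14/3. Each pair holds 1 RLSC and 1 MMH-D3 array, and the part of the split in the mitotic values was not tested. The 3'/5' ratio of the actin probe sets, a sign of RNA quality, was 1.13 in MetE14/3 and in WTE14/1, against 1.24 on MMH-D3 array 2 and 1.13 on array 1. The same ratio of Gapdh was 0.826 in MetE14/3 and 0.745 in WTE14/1, against 0.787 on MMH-D3 array 2 and 0.809 on array 1. The part of RNA quality in the low values of array 2 was not tested. In RNA from a whole culture, fewer dividing cells and less of each RNA per cell cannot be told apart.

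Among the genes of mitotic entry, Ccna2, a cyclin that drives replication and early mitosis, reached 2264 signal units in MetE14/3 and 2094 in WTE14/1, against 493 on MMH-D3 array 2 and 3309 on array 1. Ccnb2, a second B-type cyclin, had 1696 in MetE14/3 and 884 in WTE14/1, against 650 on MMH-D3 array 2 and 2227 on array 1. Cdk1, the kinase both cyclins activate, had 3326 in MetE14/3 and 4402 in WTE14/1, against 939 on MMH-D3 array 2 and 3622 on array 1. The MMH-D3 arrays thus stood on both sides of the RLSC values for the cyclins, while Cdk1 was higher in both RLSC lines than on either MMH-D3 array after normalization. Cks2, a small subunit that binds Cdk1, had 4290 in MetE14/3 and 4388 in WTE14/1, against 1732 on MMH-D3 array 2 and 4144 on array 1. Foxm1, the transcription factor that drives many late-cycle genes, had 365 in MetE14/3 and 390 in WTE14/1, against 52.0 on MMH-D3 array 2 and 268 on array 1. In both of these genes the 2 groups did not overlap. The Cdc25 phosphatases, which remove the inhibitory phosphates from Cdk1, differed in their spread. Cdc25c had 245 in MetE14/3 and 258 in WTE14/1, against 41.8 on MMH-D3 array 2 and 321 on array 1. Cdc25b had 201 in MetE14/3 and 147 in WTE14/1, against 128 on MMH-D3 array 2 and 185 on array 1, the narrowest spread between the MMH-D3 arrays of the 39 genes.

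The mitotic kinases and the spindle checkpoint followed the same order. Plk1, the polo-like kinase of mitotic entry and spindle assembly, had 1296 in MetE14/3 and 1032 in WTE14/1, against 178 on MMH-D3 array 2 and 1722 on array 1. Ttk (Mps1), the kinase that starts checkpoint signalling at kinetochores, had 550 in MetE14/3 and 527 in WTE14/1, against 93.4 on MMH-D3 array 2 and 864 on array 1. Aurka, the kinase of spindle poles, had 1662 in MetE14/3 and 1833 in WTE14/1, against 404 on MMH-D3 array 2 and 2020 on array 1. In the deposited signals of these 3 kinases array 1 held the highest value and array 2 the lowest. After normalization WTE14/1 was level with array 1 or just above it for Aurka. The checkpoint proteins that block Cdc20 were less far apart on the MMH-D3 arrays. Mad2l1, which binds Cdc20 directly, had 3241 in MetE14/3 and 2808 in WTE14/1, against 802 on MMH-D3 array 2 and 3244 on array 1. Bub1b (BubR1), its partner in the inhibitory complex, had 911 in MetE14/3 and 798 in WTE14/1, against 193 on MMH-D3 array 2 and 644 on array 1. Bub1, the checkpoint kinase at kinetochores, had 997 in MetE14/3 and 1457 in WTE14/1, against 254 on MMH-D3 array 2 and 886 on array 1. Both RLSC values were above both MMH-D3 values in Bub1 and Bub1b, and the groups overlapped in Mad2l1.

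The 4 genes of the chromosomal passenger complex, which corrects faulty attachments and then guides cytokinesis, were all over 4-fold lower on MMH-D3 array 2 than on array 1 by their brightest probe set. Aurkb, its kinase, had 704 in MetE14/3 and 841 in WTE14/1, against 164 on MMH-D3 array 2 and 695 on array 1. Birc5 (survivin), a targeting subunit, had 3888 in MetE14/3 and 2697 in WTE14/1, against 426 on MMH-D3 array 2 and 4149 on array 1. Cdca8 (borealin) had 1756 in MetE14/3 and 1237 in WTE14/1, against 246 on MMH-D3 array 2 and 1730 on array 1. Array 2 stood alone in each of these. Incenp, the scaffold of the complex, had 4095 in MetE14/3 and 1808 in WTE14/1, against 516 on MMH-D3 array 2 and 3707 on array 1. By this probe set its 2 RLSC lines were further apart than those of the other 3 subunits. The probe sets used for Aurkb, Cdca8 and Incenp, among 8 members in all, have a suffix (x_at or s_at) that marks possible cross-hybridization. The other probe set of Aurkb, which has such a suffix too, gave -1.78 for array 2 minus array 1 on the log2 scale, under 4-fold. Sets of Incenp without it gave -1.70, -2.30 and, at low signal, -1.28, so not all were over 4-fold. For Cdca8 the set without it gave -2.93.

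The anaphase genes act through the anaphase-promoting complex, the ubiquitin ligase that ends mitosis. Cdc20, its activator, had 4002 in MetE14/3 and 4084 in WTE14/1, against 1062 on MMH-D3 array 2 and 4504 on array 1. Ube2c, the enzyme that hands ubiquitin to the complex, had 4045 in MetE14/3 and 4801 in WTE14/1, against 1077 on MMH-D3 array 2 and 4641 on array 1. Both genes had nearly equal signals on the 3 high arrays. Pttg1 (securin), the inhibitor the complex destroys, had 2953 in MetE14/3 and 1993 in WTE14/1, against 1362 on MMH-D3 array 2 and 5506 on array 1. Espl1 (separase), the protease that securin holds back and that cuts cohesin, had 148 in MetE14/3 and 234 in WTE14/1, against 46.2 on MMH-D3 array 2 and 289 on array 1. In this inhibitor and its protease MMH-D3 array 1 was above both RLSC lines and array 2 was below both.

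Among the motors and microtubule proteins of the spindle, Kif11 (Eg5), the motor that pushes the poles apart, had 503 in MetE14/3 and 794 in WTE14/1, against 148 on MMH-D3 array 2 and 337 on array 1. Nusap1, which bundles spindle microtubules, had 1161 in MetE14/3 and 1071 in WTE14/1, against 359 on MMH-D3 array 2 and 851 on array 1. These were the only 2 of the 9 genes of this role in which both RLSC lines stood above both MMH-D3 arrays. Over all genes tested the share was 20.8%, near that of the 2 in 9. Kif2c, a motor that takes microtubules apart at kinetochores, had 779 in MetE14/3 and 650 in WTE14/1, against 89.5 on MMH-D3 array 2 and 715 on array 1. Tpx2, which activates Aurka on the spindle, had 1332 in MetE14/3 and 1342 in WTE14/1, against 263 on MMH-D3 array 2 and 1439 on array 1. Hmmr, a microtubule protein of the spindle poles, had 815 in MetE14/3 and 838 in WTE14/1, against 282 on MMH-D3 array 2 and 980.0 on array 1. In these 3 the groups overlapped, with MMH-D3 array 1 among the RLSC values or just above them.

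The next 4 genes build the central spindle, where the cell will be cut. Prc1, which crosslinks antiparallel microtubules there, had 1028 in MetE14/3 and 1276 in WTE14/1, against 386 on MMH-D3 array 2 and 1756 on array 1. Kif4, the chromosome-bound motor that works with Prc1, had 509 in MetE14/3 and 310 in WTE14/1, against 133 on MMH-D3 array 2 and 555 on array 1. Both were highest on MMH-D3 array 1. Kif23, the motor of centralspindlin, had 1860 in MetE14/3 and 1723 in WTE14/1, against 477 on MMH-D3 array 2 and 2241 on array 1. Kif20a, which carries the passenger complex to the midzone, had 909 in MetE14/3 and 1613 in WTE14/1, against 272 on MMH-D3 array 2 and 1506 on array 1. The 2 RLSC lines differed more in Kif20a than in Kif23.

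At the kinetochore, Cenpa, the histone variant that marks the centromere, had 1697 in MetE14/3 and 1747 in WTE14/1, against 400.0 on MMH-D3 array 2 and 1767 on array 1. Cenpe, a motor that moves chromosomes to the spindle equator, had 310 in MetE14/3 and 673 in WTE14/1, against 213 on MMH-D3 array 2 and 422 on array 1. By the probe set used, Cenpe was the member with the largest deficit of MetE14/3 against WTE14/1. Its other probe set had the opposite sign, with 137 in MetE14/3 and 102 in WTE14/1. Cenpf, a protein of the outer kinetochore, had 485 in MetE14/3 and 457 in WTE14/1, against 172 on MMH-D3 array 2 and 350 on array 1. Ndc80 and Nuf2 are partners in the complex that grips microtubule ends. Ndc80 had 281 in MetE14/3 and 474 in WTE14/1, against 86.2 on MMH-D3 array 2 and 244 on array 1. Nuf2 had 809 in MetE14/3 and 467 in WTE14/1, against 85.4 on MMH-D3 array 2 and 360 on array 1. The higher RLSC line was WTE14/1 for Ndc80 and MetE14/3 for Nuf2, and both lines were above both MMH-D3 arrays for each.

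A pair of cytokinesis genes and a pair of chromosome proteins complete the list. Anln (anillin), the scaffold of the contractile ring, had 3386 in MetE14/3 and 2912 in WTE14/1, against 959 on MMH-D3 array 2 and 3547 on array 1. Ect2, the exchange factor that turns on RhoA at the cleavage site, had 896 in MetE14/3 and 1317 in WTE14/1, against 485 on MMH-D3 array 2 and 1101 on array 1. The groups overlapped for both. Top2a, the topoisomerase that untangles sister chromatids, had 2858 in MetE14/3 and 2571 in WTE14/1, against 813 on MMH-D3 array 2 and 2259 on array 1. Mki67 (Ki-67), the marker of cycling cells that coats mitotic chromosomes, had 2097 in MetE14/3 and 1420 in WTE14/1, against 518 on MMH-D3 array 2 and 3045 on array 1. Both RLSC lines exceeded both MMH-D3 arrays for Top2a, and MMH-D3 array 1 exceeded all for Mki67.

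Between the arrays of the hepatocyte line, all 39 genes were lower on MMH-D3 array 2 than on array 1, against 6296 of the 12598 tested. The median difference, array 2 minus array 1, was -2.08 on the log2 scale, or 4.22-fold, while that of all genes was 0.00. It ran from -3.22 for Plk1 (9.32-fold) to -0.74 for Cdc25b (1.67-fold). Array 2 was lower by 4-fold or more for 21 of the 39, against 3.02% of all genes, and higher by 4-fold or more for 0, against 2.94%. With 1 array on each side this has no replicate check.

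By role, the passenger complex had the lowest median of array 2 minus array 1, at -2.76, with 4 of 4 genes lower by 4-fold or more by the probe sets used. Spindle motors and microtubule proteins had a median of -2.14 and 6 of 9 such genes, and kinases with the checkpoint had -2.07 and 3 of 6. The anaphase genes had a median of -1.99 with 2 of 4, and the genes of mitotic entry -1.83 with 3 of 7. Kinetochore genes had -1.64 with 2 of 5. By the probe sets used, the genes at the low end of the list were Plk1, Birc5 (9.15-fold lower on array 2), Ttk (9.14-fold), Kif2c (8.02-fold) and Cdc25c (7.90-fold). Those at the other end were Cdc25b, Cenpe (2.08-fold), Cenpf (2.19-fold), Ect2 (2.20-fold) and Cks2 (2.21-fold). The order depends on the probe set. Another set gave -1.95 for Cdc25c and -2.43 for Cenpe on the log2 scale, while other bright sets of Kif2c gave -2.96 and -2.70.

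**Figure D2:**
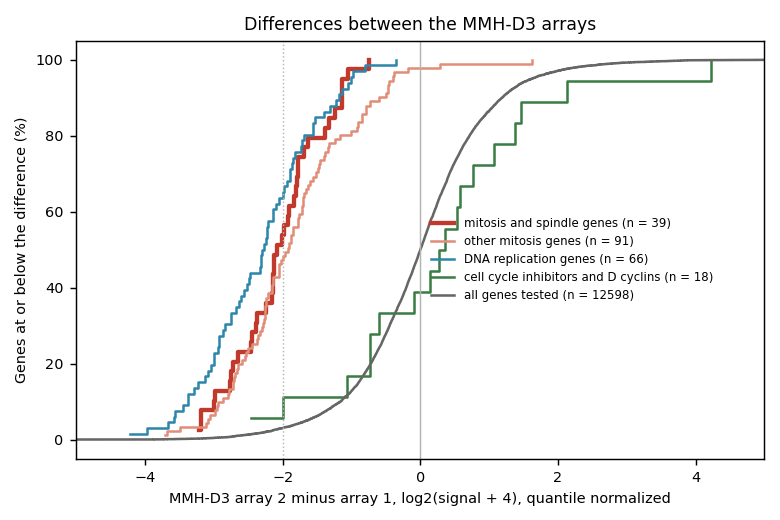
Cumulative share of genes (percent) at or below each log2 difference of MMH-D3 array 2 minus array 1 (quantile-normalized log2(signal + 4), 1 array a side; x axis limited to the centre), for the 39 mitotic genes, the other mitosis genes, DNA replication genes, cell cycle inhibitors with D cyclins, and all genes tested; the dotted line marks 4-fold lower. The mitotic curve lies wholly below 0, from -3.22 to -0.74, and crosses 50% near its median of -2.08, while that of all genes crosses at 0.00.

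Other probe sets of the same genes mostly ran the same way. The 39 genes have 85 probe sets, of which 78 passed the filter; 76 of these were lower on MMH-D3 array 2 than on array 1, and 33 by 4-fold or more. Of the 24 genes with more than 1 probe set past the filter, 23 had all of them lower on array 2. The exception was Tpx2, whose 2 dim probe sets were 0.97 and 0.49 higher on array 2 on the log2 scale, while its 2 bright ones were 2.38 and 2.30 lower.

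Markers of other cells were read on the same arrays. Of 10 erythroid and blood-cell markers with a probe set, 5 were below the filter, among them Hba-a1, Gata1 and Ptprc. Their summed signal, most of it from the transferrin receptor gene Tfrc, which dividing cells of all kinds express, was 1875 in MetE14/3 and 3792 in WTE14/1, against 1788 on MMH-D3 array 2 and 3919 on array 1. The 5 endothelial markers summed to 40.2 in MetE14/3 and 73.3 in WTE14/1, against 76.7 on MMH-D3 array 2 and 23.8 on array 1, and 1 of them passed the filter. For the 7 mesenchymal markers the sums were 15407 in MetE14/3 and 26477 in WTE14/1, against 14292 on MMH-D3 array 2 and 14046 on array 1. The 7 hepatocyte markers, which define the labelled type of MMH-D3, summed to 18529 in MetE14/3 and 12703 in WTE14/1, against 38907 on MMH-D3 array 2 and 33311 on array 1. Most of each hepatocyte sum came from the keratin genes Krt8 and Krt18, and most of each mesenchymal sum from Vim. Apob had 77.4 in MetE14/3 and 13.0 in WTE14/1, against 4647 on MMH-D3 array 2 and 2879 on array 1. Ttr had 4.6 and 8.98 in these lines, against 144 on array 2 and 19.8 on array 1. All 7 were below both MMH-D3 arrays in both RLSC lines, against 21.4% of all genes. No marker of these lists with a probe set was at 0 on all arrays. On MMH-D3 array 2, 2 of the 7 hepatocyte markers were lower than on array 1, and their median difference, array 2 minus array 1, was 0.76 on the log2 scale. The markers ran from Alb (albumin), with 440 on array 2 and 44.7 on array 1, to Afp (alpha-fetoprotein), with 923 on array 2 and 1457 on array 1. Their part in the mitotic values was not tested.

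The question of the series was how the stem cell lines differ from the hepatocyte line. Of the 39 mitotic genes, 0 passed an adjusted p of 0.05 between RLSC and MMH-D3 in limma (2 arrays each), where 0.913% of all genes did (50 higher and 65 lower in RLSC). Kif11 alone had an unadjusted p under 0.05, in a fit where 12.4% of all genes had one, and its adjusted p of 0.369 was the smallest among the members. The median difference, RLSC minus MMH-D3, was 1.01 on the log2 scale against 0.03 for all genes. The difference was above 0 for 38 of the 39, against 6550 of the 12598 genes tested. Both RLSC lines were above both MMH-D3 arrays for 12 of the 39, against 20.8% of all genes, and below both for 0, against 21.4%. Scaled to the 75th percentile in place of quantile normalization, 7 were above both, against 18.1% of all genes, a share near that of the 7 in 39. The 12 were Cdk1, Cks2, Foxm1, Bub1, Bub1b, Kif11, Nusap1, Cenpa, Cenpf, Ndc80, Nuf2 and Top2a; Cdk1 and Cenpa were so only after normalization, since their deposited signal on array 1 was above that of MetE14/3 or of both lines. An exact permutation of 2 against 2 arrays cannot go below a two-sided p of 0.333.

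The genes with the largest and smallest difference in each role, all on the log2 scale with limma's standard error, show the range. Of mitotic entry, Foxm1 had 1.59 ± 0.82 (adjusted p = 0.519) and Cdc25b 0.05 ± 0.51 (adjusted p = 0.987). Of the kinases, Bub1 had 1.39 ± 0.65 (adjusted p = 0.468) and Ttk 0.93 ± 0.99 (adjusted p = 0.808). Of the passenger complex, Birc5 had 1.39 ± 0.96 (adjusted p = 0.665) and Incenp 1.08 ± 0.89 (adjusted p = 0.733). The standard errors are of the order of the differences and include the gap between the MMH-D3 arrays. Of the anaphase genes, Ube2c had 1.04 ± 0.63 (adjusted p = 0.607) and Pttg1 -0.11 ± 0.62 (adjusted p = 0.975). Of the spindle proteins, Kif11 had 1.49 ± 0.58 (adjusted p = 0.369) and Kif4 0.53 ± 0.76 (adjusted p = 0.870). Of the kinetochore, Nuf2 had 1.76 ± 0.77 (adjusted p = 0.435) and Cenpe 0.60 ± 0.59 (adjusted p = 0.790). Nuf2 had the largest difference of the 39 and Pttg1 the one below 0. Anln had 0.86 ± 0.58 (adjusted p = 0.651), Ect2 0.63 ± 0.51 (adjusted p = 0.728), Top2a 1.08 ± 0.49 (adjusted p = 0.455) and Mki67 0.53 ± 0.77 (adjusted p = 0.870).

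That median rests on 1 array. Without MMH-D3 array 2 it was -0.03, and without array 1 it was 2.05; leaving out WTE14/1 gave 0.95 and leaving out MetE14/3 gave 1.02. Within the pairs of arrays with like poly-A control signals the values were as far apart. WTE14/1 was above MMH-D3 array 2 for all 39 genes, against 6655 of the 12598 tested, with a median of 2.15 (0.13 to 2.88). It was higher by 4-fold or more for 21, against 5.78% of all genes. MetE14/3 against MMH-D3 array 1 had a median of -0.03 (-1.04 for Espl1 to 1.07 for Nuf2), with 18 genes higher and 21 lower, and 0 at 4-fold or more, against 6.58% of all genes. These pairs compare 1 array with 1 array, and the difference between their medians was not tested.

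**Figure D3:**
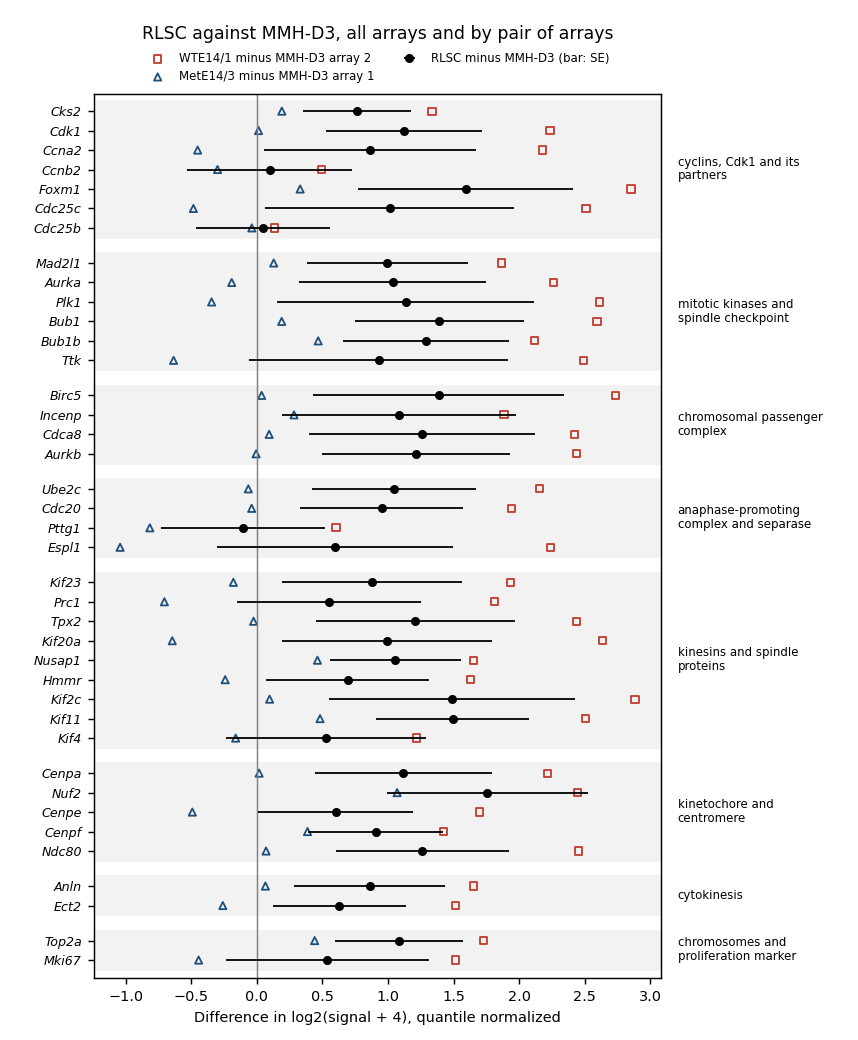
Differences in quantile-normalized log2(signal + 4) for each of the 39 mitotic genes, grouped by role: filled circles are RLSC minus MMH-D3 over all 4 arrays with limma's standard error as bars, open squares WTE14/1 minus MMH-D3 array 2, and open triangles MetE14/3 minus MMH-D3 array 1. The circles have a median of 1.01; the squares, with a median of 2.15, lie to their right for all genes and the triangles, with a median of -0.03, scatter around 0, from -1.04 for Espl1 to 1.07 for Nuf2.

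The 2 stem cell lines, of different genotype and with 1 array each, had like mitotic signals. The median of MetE14/3 minus WTE14/1 was 0.03 on the log2 scale, with 20 genes higher in MetE14/3, 18 lower and 1, Cdc20, equal. At 4-fold or more 0 of the 39 differed, against 5.13% of all genes; 2 differed by 2-fold or more, against 19.6%, and 26 by less than 0.5 on the log2 scale, against 53.7%. The 2 were Incenp, 1.15 higher in MetE14/3, and Cenpe, at -1.13, each by its brightest probe set. Next came Ccnb2 (0.89), Kif20a (-0.89), Nuf2 (0.78), Kif4 (0.77) and Ndc80 (-0.75). Other probe sets past the filter did not bear out the first 2. Those of Incenp gave 0.20, 0.98 and 0.004, and that of Cenpe gave 0.61, the opposite sign. No replicate of either line was measured, so the line, its genotype and its array cannot be told apart.

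**Figure D4:**
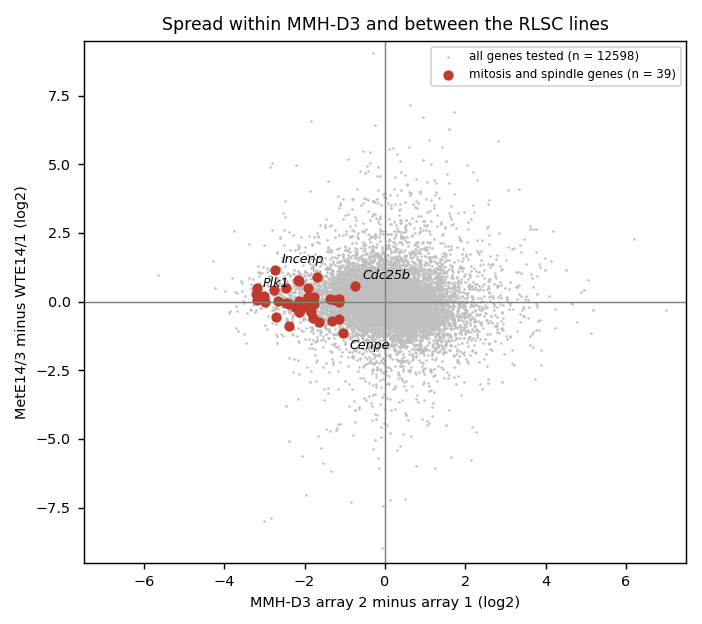
Log2 difference of MMH-D3 array 2 minus array 1 (x axis) and of MetE14/3 minus WTE14/1 (y axis) for the 39 mitotic genes (large points) and all 12598 genes tested (small points), 1 array a side, quantile normalized. The mitotic genes, each by its brightest probe set, all lie left of 0 on the x axis, from -3.22 for Plk1 to -0.74 for Cdc25b. On the y axis they lie near 0, from -1.13 for Cenpe to 1.15 for Incenp.

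Other genes of the cycle were read from further lists. Of 96 other mitosis genes, 93 had a probe set and 91 passed the filter. Between RLSC and MMH-D3 in limma 0 of the 91 passed the threshold (smallest adjusted p = 0.311). An unadjusted p under 0.05 was seen for 6, against 12.4% of all genes. The median of the 91 was 1.02 (-2.15 to 2.57), with 38 genes above both MMH-D3 arrays in both RLSC lines (20.8% of all genes). Between the MMH-D3 arrays the median of the 91 was -1.92, and 89 of them were lower on array 2, against 6296 of the 12598 genes tested. Against 3.02% of all genes, 43 (47.3%) were lower by 4-fold or more. The 2 brightest of them differed in how far they went. Stmn1 (stathmin), which destabilises microtubules, had 5631 in MetE14/3 and 4841 in WTE14/1, against 932 on MMH-D3 array 2 and 4404 on array 1, giving a difference of 1.45 ± 0.66 (limma, adjusted p = 0.461). Cks1b, the sister subunit of Cks2, had 5318 in MetE14/3 and 5995 in WTE14/1, against 3759 on MMH-D3 array 2 and 6009 on array 1, giving a difference of 0.29 ± 0.29 (adjusted p = 0.786).

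DNA replication genes shared the low array. Of 69 listed, 66 were tested, and 0 of the 66 passed the threshold (limma, smallest adjusted p = 0.365). At an unadjusted p under 0.05 were 3, against 12.4% of all genes. Between the MMH-D3 arrays all 66 were lower on array 2, against 6296 of the 12598 genes tested, with a median of -2.28 (4.87-fold). Of the 66, 42 (63.6%) were lower by 4-fold or more, against 3.02% of all genes. Pcna, the sliding clamp of replication, had 7797 in MetE14/3 and 8102 in WTE14/1, against 2993 on MMH-D3 array 2 and 8136 on array 1; its difference was 0.71 ± 0.45 (adjusted p = 0.628). Rrm2, the subunit of ribonucleotide reductase made in S phase, had 7280 in MetE14/3 and 5302 in WTE14/1, against 1469 on MMH-D3 array 2 and 7518 on array 1; its difference was 0.98 ± 0.70 (adjusted p = 0.678). The stem cell lines leaned more to 1 side in this list than in the members. In MetE14/3 52 of 66 genes were higher, against 6297 of the 12598 genes tested. The median of MetE14/3 minus WTE14/1 was 0.26. At 2-fold or more 5 of the 66 differed, against 10 of the 91 other mitosis genes and 19.6% of all genes. The differences between the lists were not tested.

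Genes that hold the cycle back or drive G1 did not share the order of the arrays. Of 20 listed, 18 were tested, and 0 passed the threshold (limma, smallest adjusted p = 0.0648, Cdkn2b). At an unadjusted p under 0.05 were 3, against 12.4% of all genes. For the 18 the median of MMH-D3 array 2 minus array 1 was 0.32. On array 2 7 were lower, against 6296 of the 12598 genes tested. Their lowest value was on array 2 for 6, a share near the 31.8% of all genes. Ccnd2, a D-type cyclin of G1, had 3513 in MetE14/3 and 6891 in WTE14/1, against 5993 on MMH-D3 array 2 and 3073 on array 1, giving a difference of 0.24 ± 0.46 (adjusted p = 0.906). Ccng1, a p53 target, had 6163 in MetE14/3 and 10357 in WTE14/1, against 5313 on MMH-D3 array 2 and 5099 on array 1, giving a difference of 0.63 ± 0.27 (adjusted p = 0.419). At 4-fold or more between the MMH-D3 arrays were 3 genes, picked out here after their values were seen. Gadd45a, a growth-arrest gene, had 88.0 in MetE14/3 and 120 in WTE14/1, against 1674 on MMH-D3 array 2 and 72.5 on array 1. Ccng2, a cyclin linked to arrest, had 1053 in MetE14/3 and 694 in WTE14/1, against 1657 on MMH-D3 array 2 and 365 on array 1. The third, Gadd45b, went the other way, at -2.46 for array 2 minus array 1. Gadd45a and Ccng2 were highest on MMH-D3 array 2, where 7 of the 18 genes of the list, Gadd45b among them, were lower than on array 1. Any link of these genes to the mitotic values was not tested.

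Promoters show what the mitotic genes share beside their signals. Late-cycle promoters are known for a short element near the start site, the cell cycle genes homology region (CHR, TTTGAA), bound by the MuvB complexes that repress or activate with the cycle, and for CCAAT boxes, bound by NF-Y. RefSeq windows (GRCm38.p6) from 250 bases before to 50 after each start were found for 33 of the 40 genes, Ccnb1 included, with 35 windows in all; Ccna2, Cdc25c, Foxm1, Aurkb, Incenp, Kif20a and Tpx2 had no entry. The windows of the 4 brightest genes that hold both motifs are printed, 5' to 3' on the strand of the gene, as examples of how the elements are arranged. Capitals mark TTTGAA and CCAAT on either strand, which read TTCAAA and ATTGG on the other.
Ube2c (chr2:164769679-164769978, plus strand): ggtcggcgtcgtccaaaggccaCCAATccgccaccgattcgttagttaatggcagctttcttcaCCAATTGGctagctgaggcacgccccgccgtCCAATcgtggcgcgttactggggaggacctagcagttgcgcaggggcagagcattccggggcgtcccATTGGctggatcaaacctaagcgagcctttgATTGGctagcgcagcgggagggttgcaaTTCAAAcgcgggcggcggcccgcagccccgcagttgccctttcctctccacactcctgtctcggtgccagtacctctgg
Cdc20 (chr4:118437294-118437593, minus strand): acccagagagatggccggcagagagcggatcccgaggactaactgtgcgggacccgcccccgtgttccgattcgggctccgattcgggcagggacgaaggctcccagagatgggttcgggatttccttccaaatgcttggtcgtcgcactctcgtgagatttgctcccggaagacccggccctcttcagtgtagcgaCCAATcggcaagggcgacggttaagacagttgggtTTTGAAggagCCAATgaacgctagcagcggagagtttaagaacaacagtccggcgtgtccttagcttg
Cdk1 (chr10:69352863-69353162, minus strand): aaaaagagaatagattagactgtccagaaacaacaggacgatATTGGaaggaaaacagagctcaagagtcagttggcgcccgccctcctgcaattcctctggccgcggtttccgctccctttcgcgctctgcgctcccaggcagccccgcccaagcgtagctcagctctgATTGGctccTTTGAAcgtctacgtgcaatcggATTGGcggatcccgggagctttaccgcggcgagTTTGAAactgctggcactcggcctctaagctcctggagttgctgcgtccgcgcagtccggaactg
Top2a (chr11:99024140-99024439, minus strand): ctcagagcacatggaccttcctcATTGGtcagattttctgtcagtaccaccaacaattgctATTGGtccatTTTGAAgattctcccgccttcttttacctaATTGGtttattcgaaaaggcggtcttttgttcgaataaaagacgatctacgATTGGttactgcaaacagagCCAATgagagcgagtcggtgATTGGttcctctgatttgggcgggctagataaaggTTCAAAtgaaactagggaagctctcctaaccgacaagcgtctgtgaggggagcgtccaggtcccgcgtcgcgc
In Ube2c 6 CCAAT boxes stand upstream of 1 CHR that begins 29 bases before the start, and 2 of the boxes overlap on opposite strands. In Cdc20 the CHR begins 18 bases before the start, with a CCAAT box on each side of it. Cdk1 has 2 CHR matches, at 71 and 15 bases before the start, and 3 CCAAT boxes. Top2a has 2 CHR matches and 6 CCAAT boxes.

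The members held these motifs more often than promoters at large. TTTGAA, on either strand, was in 25 of 35 member windows (71.4%), in 43 of 87 windows of the other mitosis genes (49.4%) and in 5878 of 32851 windows of all genes (17.9%). Near the start, within 50 bases on either side, it began in 23 (65.7%) of the member windows, in 37.9% of those of the other mitosis genes and in 4.94% of all. The variant TTCGAA was in 4 member windows (11.4%) and in 1.56% of all. CCAAT was in 27 (77.1%), in 65.5% of the other mitosis windows and in 37.4% of all, and at least 2 copies were in 18 (51.4%), 37.9% and 11.7%. Both TTTGAA and CCAAT were in 22 member windows (62.9%), against 34.5% of the other mitosis windows and 6.95% of all. The windows of Mad2l1, Birc5, Pttg1, Nusap1 and Nuf2 held none of the 3 motifs. Windows of 1 gene overlap (Prc1 and Ect2 have 2 each), and a match describes letters in a window and no binding.

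**Figure D5:**
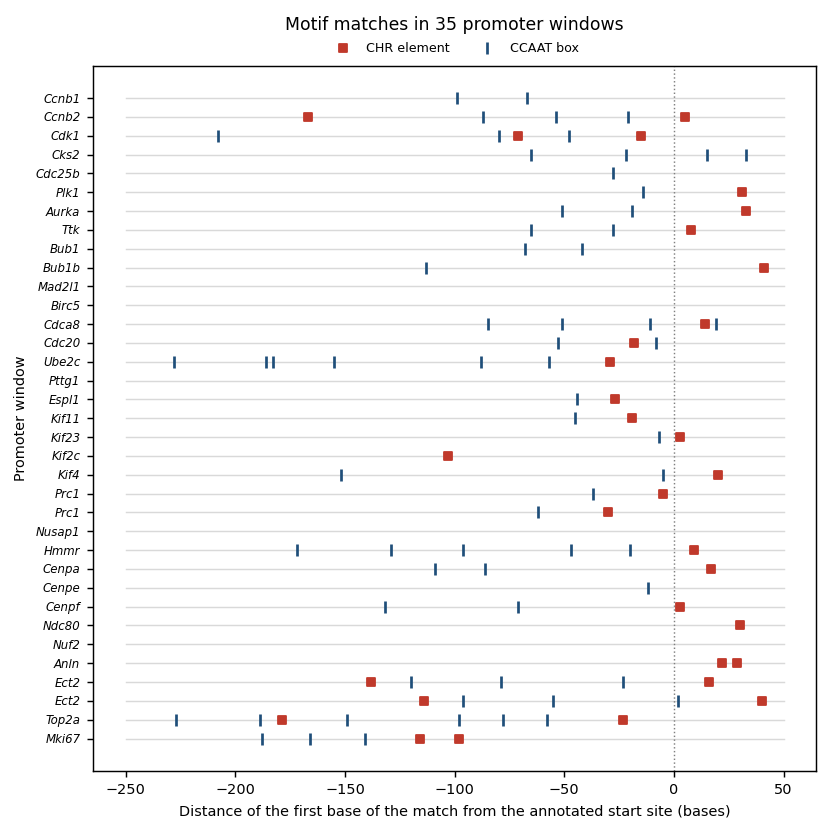
Positions of CHR (TTTGAA, squares) and CCAAT (ticks) matches on either strand in the 35 promoter windows of the mitotic genes, as the distance in bases of the first base of the match from the annotated start site (dotted line). In 23 windows a CHR match lies within 50 bases of the start, and CCAAT boxes mostly lie upstream of it.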

How the data were processed

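RNA of 2 RLSC lines (MetE14/3 and WTE14/1, 1 array each) and of MMH-D3 (2 arrays) was measured on Mouse430_2 arrays. The deposited values are GCOS signal intensities on a linear scale, per the submitters' processing notes and the values; no source used here gives the version of GCOS. The trimmed mean (2% at each end) is 200.001. Detection calls were not used here, and the number of arrays limits the precision.

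The table has 45101 probe sets, 64 of them controls; 34958 have 1 symbol in the platform annotation and 932 several, and of those with 1 symbol 34754 matched RefSeq by Entrez ID, with 0 symbols changed. Since array medians differed by 0.61 (log2), log2(signal + 4) was quantile normalized. Probe sets under the 40th percentile of mean signal (11.7) were left out, and each gene was read by its brightest probe set, so levels are not compared between genes. Differences were tested with limma 3.58.1 in R 4.3.3 (lmFit, eBayes with trend, residual degrees of freedom 2, two-sided), with Benjamini-Hochberg adjustment over 12598 genes and a threshold of 0.05; the fit was tested on simulated data. Contrasts of 1 array with 1 array are log2 differences with no test.

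All members are named, with full statistics for the highest and lowest difference in each role; of each other list the 2 brightest genes are named where none passed. Members and lists were chosen with earlier results of these data known. Alternatives changed the pseudocount, filter, normalization, probe set rule and pair block, or left out an array.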

Additional observations from a re-analysis of the deposited data

How the results depend on the processing

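No member passed the threshold under any alternative run (smallest adjusted p = 0.0781, without MMH-D3 array 1). Of 224 alternative values of the named members 12 changed sign. Many of the 224 could not, since the filter, the block and single probe sets leave these differences as they were. Without MMH-D3 array 2 the sign changed for Anln, Birc5, Cdc25b, Incenp, Kif4, Mki67 and Ttk. The remaining changes of sign were in Cdc25b and Pttg1. No paired analysis was possible because the labels number only the MMH-D3 arrays as replicates, and the numbers in the RLSC names belong to lines. With the pairs of like poly-A control signals as a block, 0 members passed. The differences within each pair are not among the 224, and some of them also had the opposite sign to the main fit. MetE14/3 minus MMH-D3 array 1 was below 0 for Cdc25b, Cenpe (-0.49), Ect2 (-0.26), Kif4, Mki67, Ttk and Ube2c (-0.07). WTE14/1 minus MMH-D3 array 2 was 0.60 for Pttg1. Without suffix-marked probe sets (an alternative chosen after seeing the data) Pttg1 had a difference of 0.39, and as a median over probe sets 0.14. Leaving out 1 array gave ranges of -0.027 to 1.75 for Anln, -0.21 to 2.98 for Birc5, -0.32 to 0.42 for Cdc25b, -0.29 to 2.46 for Incenp, -0.55 to 1.60 for Kif4, -0.69 to 1.76 for Mki67, -1.07 to 0.85 for Pttg1 and -0.67 to 2.52 for Ttk. It moved the median of the other mitosis genes between 0.11 and 2.06, of the replication genes between -0.055 and 2.27 and of the inhibitors and D cyclins between -0.092 and 0.42. In that last list 0 to 1 genes passed when 1 array was left out, and 1 under 75th percentile scaling. With both RLSC lines above both MMH-D3 arrays there were 7 members under 75th percentile scaling and 25 of 78 probe sets counted singly. Counted singly, 33 probe sets were lower by 4-fold or more on MMH-D3 array 2 and 75 were lowest there. The more numerous units set these counts, and the shares over all probe sets are not given here. A group left with 1 array is assumed to vary like the other.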

Other observations

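Among the other mitosis genes, 2 differed by 4-fold or more between the stem cell lines. Psrc1, which encodes a spindle protein, had a signal of 10.2 in MetE14/3, below the low-signal limit of 11.7, and 766 in WTE14/1, so the size of its difference is not given. Depdc1a had 121 in MetE14/3 and 587 in WTE14/1, a difference of -2.25 on the log2 scale (1 array each, no test). Both were picked out after their values were seen.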
